A study of Mus musculus with 14 samples.

Results

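Ppargc1a, Ppargc1b, Ucp1, Dio2, Prdm16, Cidea, and Elovl3 form a short list of PGC-1 coactivators and thermogenic genes, 7 of the 21853 protein-coding genes of the annotation. They were chosen by name, and all CRTC2, NF-κB p65, and H3AcK27 peaks in each gene body and within 50 kb of it were collected, 144 of 243429 peaks in 12 lists. Chromatin immunoprecipitation sequencing (ChIP-seq) was performed on differentiated adipocytes of 3T3-L1, a mouse preadipocyte line. Cells were left untreated (control) or exposed for 1 h to 10 µM forskolin (FSK, an activator of adenylyl cyclase), to TNFα, or to FSK together with TNFα. Each antibody and treatment has 1 library, so values below are compared without a test between treatments.

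PGC-1α (encoded by Ppargc1a) and PGC-1β (Ppargc1b) are transcriptional coactivators that bind nuclear receptors and raise the expression of mitochondrial genes. In brown and beige adipocytes, cAMP signaling activates CREB and its CRTC coactivators, and Ppargc1a is a well known cAMP target. UCP1 uncouples respiration to produce heat, DIO2 converts thyroxine to its active form, PRDM16 is a determination factor of brown and beige adipocytes, CIDEA is a lipid droplet protein, and ELOVL3 elongates fatty acids. 3T3-L1 cells are commonly used as a model of white adipocytes, in which Ucp1 is typically low. Acetylation of histone H3 on lysine 27 (H3AcK27) marks active promoters and enhancers.

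CRTC2 and p65 libraries held 16438040 to 31807394 tags and H3AcK27 libraries 9832884 to 27966129, with the fewest after FSK. Control and TNFα lists were called over an untreated input and both FSK lists over an FSK input, so effects of FSK and of the input cannot be told apart. A normalized tag value is the tags of a peak per 10000000 tags of its library, and intervals in parentheses are exact 95% Poisson intervals, which cover counting error only. Lists hold only peaks past a threshold, so a site that is not listed may still be occupied. H3AcK27 regions overlapped the promoters of 3 of 7 adipocyte markers (Fabp4, Pparg, and Lpl) in all 4 lists and of none of the 2 hepatocyte markers. Adipoq, Plin1, Cebpa, and Cidec had no promoter region in any list. Regions were also listed at promoters of 1 to 2 of 5 macrophage and leukocyte markers, 0 to 1 of 3 skeletal muscle markers, and 0 to 2 of 2 endothelial markers. Of all protein-coding genes, 45.4% had a promoter region in all 4 lists and 47.0% to 51.7% in single lists. The adipocyte count was thus near the share of all genes and does not identify the cells.

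CRTC2 was called at the promoter of 1 of the 7 genes, Ppargc1a, and in the FSK list alone, where 27.4% of all protein-coding genes had a promoter peak. In any of the 4 lists 43.1% of all genes had one. A promoter extends from 1000 bp upstream to 100 bp downstream of an annotated start site. No CRTC2 promoter peak was listed at any of the 7 genes in control cells, after TNFα, or after combined treatment, against 11.8%, 39.9%, and 29.1% of all genes. p65 was listed at none of the 7 promoters in any condition, against 0.0915%, 0.586%, 0.627%, and 1.01% of all genes in control, FSK, TNFα, and combined lists and 2.10% in any list. H3AcK27 regions overlapped the promoters of Ppargc1a and Ppargc1b, by at least 1 bp, in all 4 lists, a pattern shared by 45.4% of all genes. At Ppargc1b the region did not reach a start site in the FSK and combined lists. In single lists 51.7%, 47.0%, 51.4%, and 49.1% of all genes had a promoter region in control cells, after FSK, after TNFα, and after combined treatment. Ucp1, Dio2, Prdm16, Cidea, and Elovl3 had no promoter H3AcK27 region in any list, as did 46.7% of all genes.

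**Figure D1:**
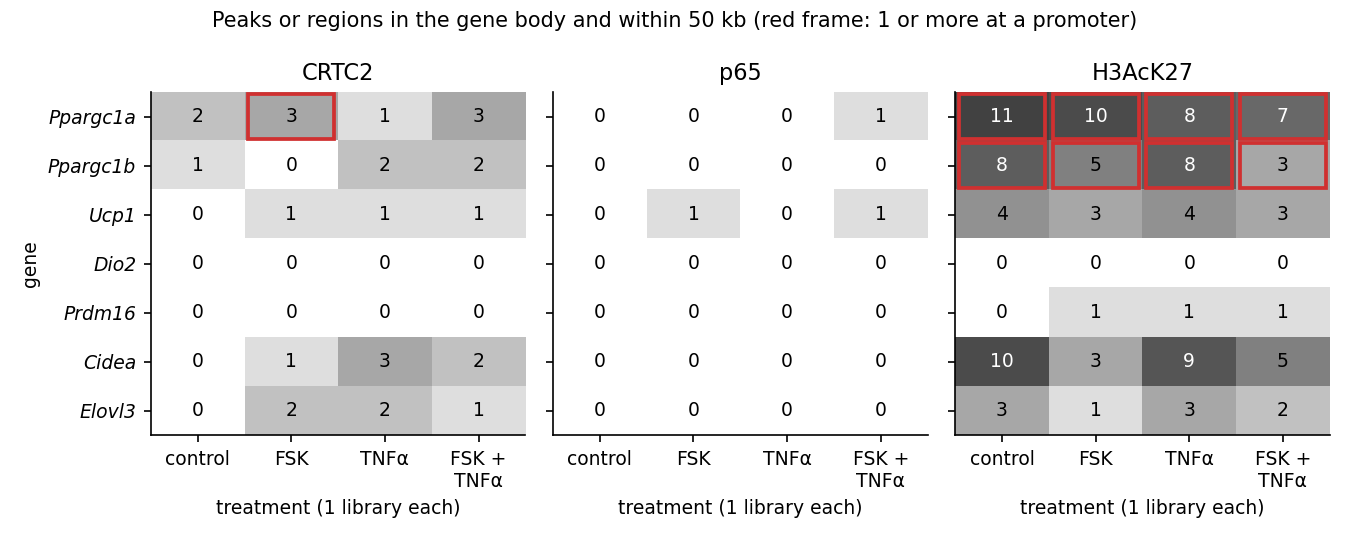
Number of CRTC2 peaks, p65 peaks, and H3AcK27 regions in the gene body and within 50 kb (printed in each cell, darker for more) for 7 genes (rows) and 4 treatments (columns, 1 library each). Red frames mark a promoter peak or region: Ppargc1a for CRTC2 with FSK, and Ppargc1a and Ppargc1b for H3AcK27 in all 4 lists.

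In gene bodies and within 50 kb, CRTC2 peaks numbered 3 in control cells, 7 after FSK, 9 after TNFα, and 9 after combined treatment. With the 5188 best-scored peaks of each list the order turned, with 3 in control cells and 2 in each treated list. Peaks of the full lists lay in the windows of 2, 4, 5, and 5 of the 7 genes, against 39.2%, 60.4%, 70.3%, and 64.5% of all genes. Per 100 kb of window, the 7 genes held 0.233, 0.544, 0.700, and 0.700 CRTC2 peaks, and all genes held 0.434, 1.07, 1.77, and 1.20. Pooled over 1286 kb, the density at the 7 genes was below that of all genes in every list. This length includes the windows of Prdm16 (421 kb) and Dio2 (114 kb), which held 0 CRTC2 peaks. Density without these windows was not computed. Of the 28 CRTC2 peaks, 15 were nearest to a start site of the listed gene and 13 to that of a neighbor, and 16 were called in a single list. Over whole lists, 50.6% of CRTC2 peaks in control cells, 31.2% after FSK, 58.2% after TNFα, and 39.4% after combined treatment were called in that list only. p65 had 3 peaks in all, 1 after FSK and 2 after combined treatment, in the windows of Ucp1 and Ppargc1a. p65 windows thus numbered 0, 1, 0, and 2 of 7, against 1.91%, 16.9%, 14.9%, and 22.3% of all genes. H3AcK27 regions lay in the windows of 5, 6, 6, and 6 of the 7 genes, against 81.1%, 78.8%, 80.8%, and 79.8%. Dio2 had no peak of any antibody in its window, as did 15.2% of all genes (17.3% for H3AcK27), and Dio2 and Prdm16 had no CRTC2 or p65 peak, as did 21.8%.

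Ppargc1a (chr5:51454250-51567726, minus strand, GRCm38) held the most factor peaks, 9 for CRTC2 and 1 for p65, and its 213 kb window contains no other protein-coding gene. Shorter windows of 108, 124, and 104 kb at Ucp1, Cidea, and Elovl3 held 3, 6, and 5 CRTC2 peaks, and that of Ucp1 also 2 p65 peaks. These counts are not scaled by window length. It has an upstream start site and, 13804 bp downstream, a proximal pair of start sites. After FSK a CRTC2 peak was listed 163 bp upstream of the upstream start (chr5:51567809-51567969) with 18 tags, or 11.0 normalized tags (6.49 to 17.3). It was 9.93-fold over input and ranked 5424 of 11749 peaks by score, in the middle of its list. No other CRTC2 list had a promoter peak at Ppargc1a. A CRTC2 promoter peak after FSK alone of the 4 lists was found for 183 genes, or 0.837%.

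Bases upstream of both Ppargc1a start regions are shown because the site of the listed CRTC2 peak and the best match to a CREB site differ. Capitals mark matches, on either strand, to TGACG, the half-site of the cAMP response element (CRE), or to the full palindrome TGACGTCA, which contains that half-site on both strands. The upstream start sequence is from the RefSeq promoter table (GRCm38.p6, chr5:51567726-51567975, minus strand), and the proximal one was read from the genome of the same build (chr5:51553923-51554172, minus strand).
Ppargc1a upstream start: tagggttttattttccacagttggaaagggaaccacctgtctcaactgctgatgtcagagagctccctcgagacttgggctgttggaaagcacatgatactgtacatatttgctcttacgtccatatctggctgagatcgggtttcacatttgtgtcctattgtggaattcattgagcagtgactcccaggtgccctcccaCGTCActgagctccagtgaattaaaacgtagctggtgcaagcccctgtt
Ppargc1a proximal start: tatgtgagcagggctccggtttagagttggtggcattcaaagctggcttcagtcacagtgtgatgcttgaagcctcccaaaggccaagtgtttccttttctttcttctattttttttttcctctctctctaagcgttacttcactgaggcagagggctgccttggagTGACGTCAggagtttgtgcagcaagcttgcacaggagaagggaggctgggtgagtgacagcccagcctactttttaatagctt

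The upstream start sequence held 1 half-site, 45 to 49 bases before the RefSeq start and 35 bp outside the edge of the FSK peak, which itself held none of the motifs searched. A half-site was present in 20.8% of all RefSeq promoters of 300 bp and in 26.3% of all CRTC2 peaks after FSK in 200 bp windows. The proximal sequence held a full CRE 76 to 83 bases before the start site. This CRE lay within the large H3AcK27 region in all 4 lists, yet no CRTC2 peak covered it, and the nearest was 1.05 kb away in control cells, 13.8 kb after FSK, 11.3 kb after TNFα, and 8.60 kb after combined treatment. Among 392 genes with a full CRE within 250 bp upstream of a start site and H3AcK27 at that promoter in all 4 lists, 26.3%, 74.5%, 87.2%, and 78.8% had a CRTC2 peak there in control, FSK, TNFα, and combined lists. The proximal promoter of Ppargc1a was 1 of 23 in that group (5.87%) with no CRTC2 peak in any list.

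The highest CRTC2 value at Ppargc1a was far upstream, though an intronic peak in control cells was close to it, at 14.8 normalized tags (9.85 to 21.4). A site 23.9 kb upstream of the upstream start was called after FSK (chr5:51591510-51591670) and again after combined treatment, and it was the single Ppargc1a site shared between lists. It held 16.4 normalized tags after FSK (10.8 to 23.9) and 11.3 after combined treatment (7.93 to 15.7), with overlapping intervals. Its sequence, printed because the site recurred, held no match to any motif searched, and therefore no capitals.
Ppargc1a distal CRTC2 peak, minus strand: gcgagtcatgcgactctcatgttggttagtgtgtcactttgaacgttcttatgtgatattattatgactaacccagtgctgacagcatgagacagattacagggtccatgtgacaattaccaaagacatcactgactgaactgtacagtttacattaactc

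A further FSK peak was centered 28044 bp upstream (11.6 normalized tags, 6.96 to 18.1). Both distal sites lay within H3AcK27 regions, and regions there were listed in all 4 conditions. Other CRTC2 peaks of Ppargc1a were intronic and differed between lists. Control cells had peaks 1.02 kb (7.41 normalized tags, 4.05 to 12.4) and 34.5 kb (14.8, 9.85 to 21.4) downstream of the proximal start sites. After TNFα a single peak lay 11.2 kb downstream of them (11.0, 7.34 to 15.7). After combined treatment peaks lay 8.58 kb (7.55, 4.83 to 11.2) and 9.27 kb (8.17, 95% lower limit 5.34) downstream, the first with a CRE half-site.

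A p65 peak was called 1.30 kb upstream of the upstream Ppargc1a start after combined treatment (chr5:51568945-51569107) and in no other p65 list. It held 15.1 normalized tags (10.3 to 21.5), ranked 1614 of 4221 peaks, and had no match to the NF-κB site, which was found in 1.56% of that list. In the same combined treatment the CRTC2 peak and the H3AcK27 regions at this start were not listed. The combined CRTC2 library held 31807394 tags with a lowest listed score of 10, and the FSK library 16438040 with 9. The part of depth and thresholds in this difference was not tested.

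**Figure D2:**
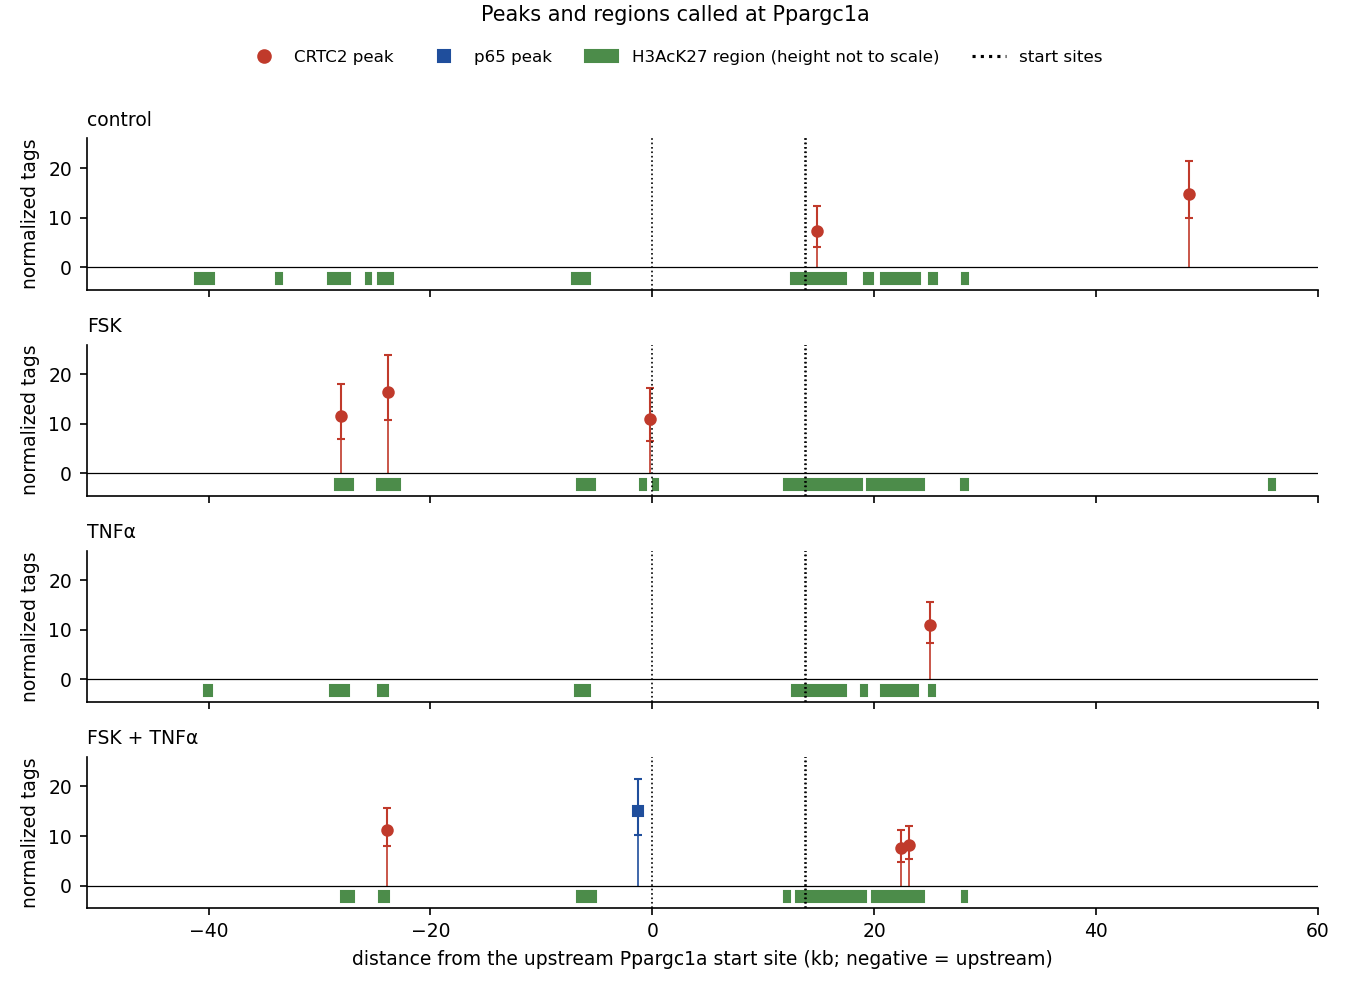
CRTC2 peaks (circles) and p65 peaks (squares) at Ppargc1a by normalized tags (vertical axis, bars are 95% Poisson intervals) and distance from the upstream start site in kb (horizontal axis), with H3AcK27 regions as green bars and start sites dotted, 1 panel per treatment. FSK shows a peak and flanking acetylation at 0 kb that the other panels lack, and 1 acetylated region far downstream in the FSK list lies outside the range drawn.

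H3AcK27 at Ppargc1a centered on the proximal promoter. The region overlapping it held 516, 663, 429, and 468 normalized tags in control, FSK, TNFα, and combined lists over 4963, 7021, 4817, and 6276 bp. After FSK it was wider and held more tags. Together with 2 small regions at the upstream start, the promoter regions held 704 normalized tags after FSK, at 87.7 per kb, and 516 in control cells, at 104 per kb. The FSK over control ratio of promoter tags was 1.37 for Ppargc1a, with a median of 0.861 over the 9924 genes with a promoter region in all 4 lists, of which 92.3% had a lower ratio. Per kb the ratio was 0.844, and 17.9% of genes were lower, so the direction depends on the measure. At the upstream start, regions of 501 bp on either side of the CRTC2 peak were listed after FSK and in no other list. They held 22 and 18 tags, or 22.4 (95% lower limit 14.0) and 18.3 (10.8) normalized tags. This library was the shallowest of the 4, and its lowest listed score was 9, against 13 to 14 in the others. The part of these differences was not tested. An intronic region 8.09 to 8.52 kb downstream of the proximal start sites held 255, 415, 234, and 262 normalized tags in the same order. The distal regions at the CRTC2 sites held 42.4, 117, 25.7, and 26.8 at the nearer site and 89.1, 113, 56.5, and 46.6 at the farther one, each highest after FSK.

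Ppargc1b (chr18:61298136-61400431, minus strand) differed from Ppargc1a in having no CRTC2 peak after FSK. Its strongest CRTC2 peak was called after TNFα, in an intron 1.48 kb downstream of the start. It held 59 tags, or 22.3 normalized tags (17.0 to 28.7), and ranked 3210 of 19527. The same site was listed after combined treatment at 7.23 normalized tags (4.58 to 10.9). The intervals do not overlap, but they take every tag as independent. At most 1 tag per position, the scores were 21 after TNFα and 12 after combined treatment, and this difference was not tested. Further intronic peaks held 9.07 normalized tags after TNFα and 11.0 after combined treatment, and a control peak 41.0 kb upstream held 14.3 (9.42 to 20.8). No p65 peak was listed in the Ppargc1b window.

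H3AcK27 at Ppargc1b was lower in both FSK lists. The promoter region held 406 normalized tags in control cells, 202 after FSK, 363 after TNFα, and 294 after combined treatment. Per kb these were 100, 54.0, 88.2, and 49.8. FSK over control promoter density was 0.538, lower than in all but 0.615% of 9924 genes, and combined over TNFα density was 0.565, lower than in all but 0.887%. In the same comparisons the median gene had density ratios of 1.05 and 1.01. By promoter tags, the Ppargc1b ratios were 0.498, with 9.63% of genes lower, and 0.810, with 31.6% lower. The median ratios of tags were 0.861 and 0.901, so the distance of Ppargc1b from other genes depends on the measure. In both FSK lists the region ended short of the annotated start site, which it covered in control and TNFα lists. Over the whole window, regions numbered 8, 5, 8, and 3 and covered 18.8, 9.34, 16.7, and 7.27 kb, or 9.27%, 4.61%, 8.27%, and 3.59% of it. Windows of all genes were covered to 8.04%, 5.46%, 7.84%, and 6.27% in the same order. In the combined list the promoter region was joined to a neighboring intronic one, and the FSK library was the shallowest, so the part of region calling in these values was not tested.

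**Figure D3:**
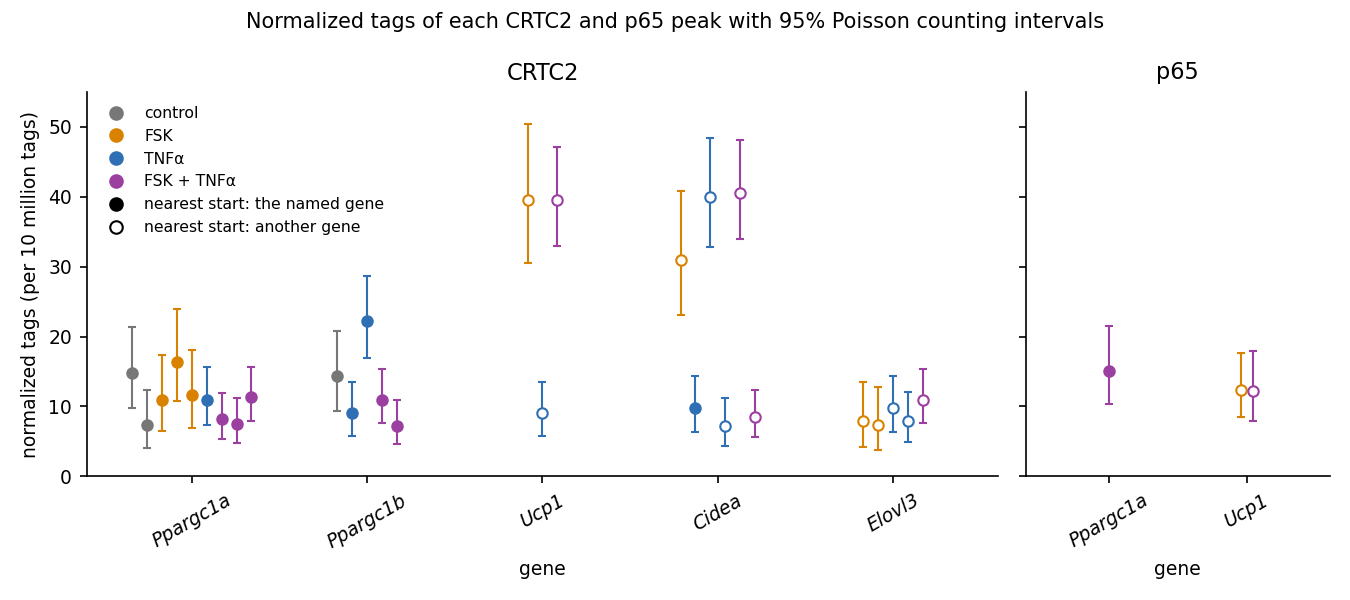
Normalized tags per 10000000 library tags (vertical axis) of every CRTC2 peak (left) and p65 peak (right) in the windows of the named genes, colored by treatment, with 95% Poisson intervals. Filled points are nearest to a start site of the named gene and open points to another gene: values above 30 at Ucp1 and Cidea are all open.

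The Ucp1 window (Ucp1 at chr8:83290352-83298452, plus strand) held strong CRTC2 peaks, but they lay at the start of Elmod2, 42.5 kb from the Ucp1 start. They were centered 356 bp upstream of Elmod2 after FSK with 39.5 normalized tags (30.5 to 50.4) and 339 bp upstream of it after combined treatment with 39.6 (33.0 to 47.2). They ranked 350 of 11749 and 501 of 14171. No peak was listed there in control cells, and after TNFα a peak of 9.07 normalized tags (5.81 to 13.5) lay 312 bp inside Elmod2. After combined treatment p65 was called at the same site with 12.2 normalized tags (7.90 to 18.0), the only CRTC2 peak of the 28 that overlapped a p65 peak. Another p65 peak after FSK lay in an Elmod2 intron 29.5 kb from the Ucp1 start (12.4 normalized tags, 8.44 to 17.6).

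Sequences of the Ucp1 promoter and of the peak shared by CRTC2 and p65 are given because both hold a CRE half-site, in capitals, and CRTC2 was called at 1 of them. The promoter is from the RefSeq table (chr8:83290098-83290347, plus strand), and the peak is the combined CRTC2 peak (chr8:83332744-83332906, minus strand).
Ucp1 promoter: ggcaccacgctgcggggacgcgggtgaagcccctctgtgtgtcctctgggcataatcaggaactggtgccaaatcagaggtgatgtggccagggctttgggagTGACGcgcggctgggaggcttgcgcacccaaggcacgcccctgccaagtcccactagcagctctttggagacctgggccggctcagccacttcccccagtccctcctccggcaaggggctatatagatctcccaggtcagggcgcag
Peak at the Elmod2 start: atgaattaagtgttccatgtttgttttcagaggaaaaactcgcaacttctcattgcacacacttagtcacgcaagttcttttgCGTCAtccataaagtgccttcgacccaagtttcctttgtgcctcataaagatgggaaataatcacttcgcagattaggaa

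The nearest CRTC2 peaks to the Ucp1 half-site were those at Elmod2, 42.6 kb away after FSK and 42.5 kb after combined treatment, and in control cells the nearest was 152 kb away. No H3AcK27 region was listed at the Ucp1 promoter or in its gene body in any of the 4 lists. A region 11752 to 11999 bp upstream held 42.8, 34.6, 26.8, and 29.9 normalized tags in control, FSK, TNFα, and combined lists. A weaker region 19762 to 20041 bp downstream of the start held 20.7, 25.0, and 21.4 in control, TNFα, and combined lists and was not listed after FSK. Regions nearest to Ucp1 thus summed to 63.5, 34.6, 51.8, and 51.3, whereas those nearest to other genes summed to 192, 474, 288, and 494. The rise with FSK in the Ucp1 window was at Elmod2.

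Dio2 (chr12:90724552-90738438, minus strand) had no listed peak or region in a window of 114 kb, although its RefSeq promoter held a full CRE, 88 to 95 bases before that start. A full CRE occurred in 1.79% of all RefSeq promoters. The sequence, from chr12:90739039-90739288 on the minus strand, is shown for this CRE and for a C/EBP site, TTGCNNCAA, both in capitals. The nearest CRTC2 peak to the CRE was 522 kb away in control cells, 849 kb after FSK, 536 kb after TNFα, and 849 kb after combined treatment.
Dio2 promoter: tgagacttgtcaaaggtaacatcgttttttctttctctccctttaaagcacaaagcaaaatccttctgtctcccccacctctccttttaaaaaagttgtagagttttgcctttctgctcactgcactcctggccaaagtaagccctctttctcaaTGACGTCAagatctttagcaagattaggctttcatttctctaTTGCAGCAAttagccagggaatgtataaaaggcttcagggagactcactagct

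Prdm16 (chr4:154316125-154636873, minus strand) had the longest window, 421 kb, and the least signal after Dio2. No CRTC2 or p65 peak was listed. Each treated list had 1 weak H3AcK27 region 211 to 212 kb inside the gene, with 8 tags after FSK, 30 after TNFα, and 19 after combined treatment, or 8.14, 10.7, and 7.38 normalized tags, and none was listed in control cells. The TNFα region overlapped the other two, which did not overlap each other. The protein-coding start nearest to all of them was that of B230104I21Rik. These regions ranked in the last part of their lists, at 86.6% to 92.1% of the ranking by score. The RefSeq promoter of Prdm16 held none of the motifs searched.

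At Cidea, the lipid droplet gene (chr18:67343604-67367785, plus strand), most of the signal lay nearest to Tubb6, a tubulin gene downstream. CRTC2 peaks at the Tubb6 start held 31.0 normalized tags after FSK (23.1 to 40.8), 40.0 after TNFα (32.8 to 48.4), and 40.6 after combined treatment (33.9 to 48.2), and none was listed in control cells. They ranked between 423 and 596 in their lists. Weaker peaks of 8.49 normalized tags in Tubb6 after combined treatment and 7.18 in an intron of Afg3l2 after TNFα were also nearest to Tubb6. The sole CRTC2 peak nearest to Cidea itself was called after TNFα, 3.15 kb upstream of its start, with 9.82 normalized tags (6.42 to 14.4). It lay outside any H3AcK27 region of that treatment.

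No H3AcK27 region was listed at the Cidea promoter under any treatment, but regions lay at the end of the gene and beyond it. A region in the gene, 21.5 to 22.1 kb from its start, held 25.7 normalized tags in control cells (95% lower limit 20.1), 72.9 after TNFα (63.3), and 36.9 after combined treatment (29.9), and was not listed after FSK. Over the window regions numbered 10, 3, 9, and 5 in control, FSK, TNFα, and combined lists, and covered 17.4, 5.24, 19.4, and 9.90 kb. Both FSK lists had fewer regions than both others, and over all genes the median also was 3 regions in each FSK list and 4 in control and TNFα lists.

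Elovl3 (chr19:46131897-46135694, plus strand) had no factor peak nearest to its own start. Its 5 CRTC2 peaks lay around the start of Gbf1, 20.5 to 22.4 kb downstream, and held 7.30 to 11.0 normalized tags after FSK, TNFα, or combined treatment. They ranked at 61.3% to 81.9% of their lists by score, except for the combined peak, at 44.4%. Of the 5, 3 held a CRE half-site, after TNFα and combined treatment. A small H3AcK27 region overlapping the 3′ end of Elovl3, with its center in a UTR of the neighbor Pitx3, held 10.1 normalized tags in control cells and 26.5 after TNFα and was not listed after FSK or combined treatment. Window totals were 273, 65.1, 381, and 75.0 normalized tags.

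**Figure D4:**
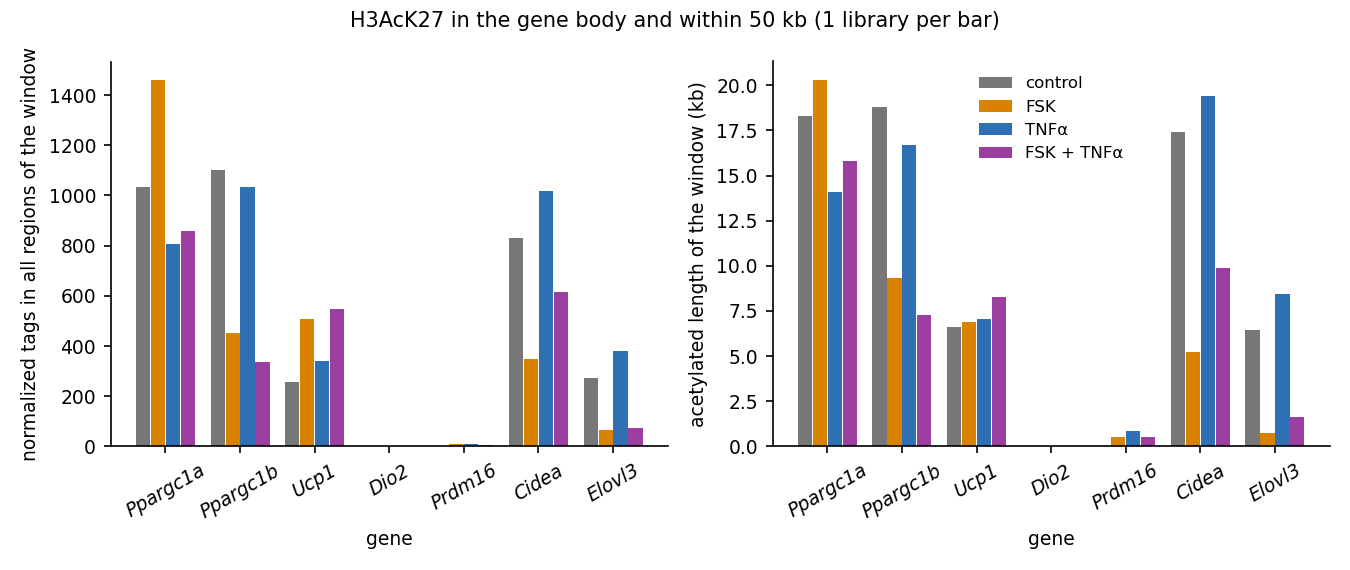
H3AcK27 normalized tags summed over all regions in the gene body and within 50 kb (left) and acetylated length in kb (right) for each gene, with 1 bar per treatment and library. Ppargc1a is highest after FSK at 1461 tags, summed tags at Ppargc1b, Cidea, and Elovl3 are lower in both FSK lists than in control and TNFα lists (tags per kb at Cidea and Elovl3 are higher), and Dio2 is at 0.

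Set beside all genes, these totals moved in different directions. Among 16897 genes with a region in all 4 lists, the median FSK over control ratio of summed tags was 0.784 (quartiles 0.622 and 0.966). Ppargc1a had a ratio of 1.41 and Ucp1 1.99, above 95.1% and 98.7% of genes. Ppargc1b had 0.409, Cidea 0.420, and Elovl3 0.238, with 6.78%, 7.25%, and 1.67% of genes lower. At Cidea and Elovl3 nearly all of these totals lay nearest to other genes, with 36.2 normalized tags nearest to Cidea and 795 to others in control cells, and 10.1 nearest to Elovl3 and 263 to others. Mean density moved the other way at both, from 47.7 normalized tags per kb in control cells to 66.5 after FSK at Cidea and from 42.6 to 85.2 at Elovl3, so the direction depends on the measure. In the presence of TNFα, combined over TNFα ratios were 1.06 for Ppargc1a, 0.324 for Ppargc1b, 1.60 for Ucp1, 0.605 for Cidea, and 0.197 for Elovl3, against a median of 0.832. Addition of TNFα to FSK gave 0.587 at Ppargc1a, lower than in all but 3.98% of genes, and a median of 1.09. The same ratio was 0.745 at Ppargc1b, 1.07 at Ucp1, 1.15 at Elovl3, and 1.77 at Cidea, above 95.7% of genes. TNFα alone gave 0.781 at Ppargc1a and between 0.940 and 1.40 at the other 4 genes, with a median of 1.04. Regions held 48.6% and 50.9% of all tags in the FSK and combined libraries and 64.9% and 66.7% in the control and TNFα libraries, and the part of this difference in the ratios was not tested. These comparisons share libraries, windows of neighboring genes overlap, and sums move with the called length, which for Ppargc1a was 18.3, 20.3, 14.1, and 15.8 kb in control, FSK, TNFα, and combined lists. Mean density over the Ppargc1a regions was 56.5, 71.9, 57.5, and 54.5 normalized tags per kb, beside 63.0, 72.8, 67.4, and 68.8 over regions of all genes.

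**Figure D5:**
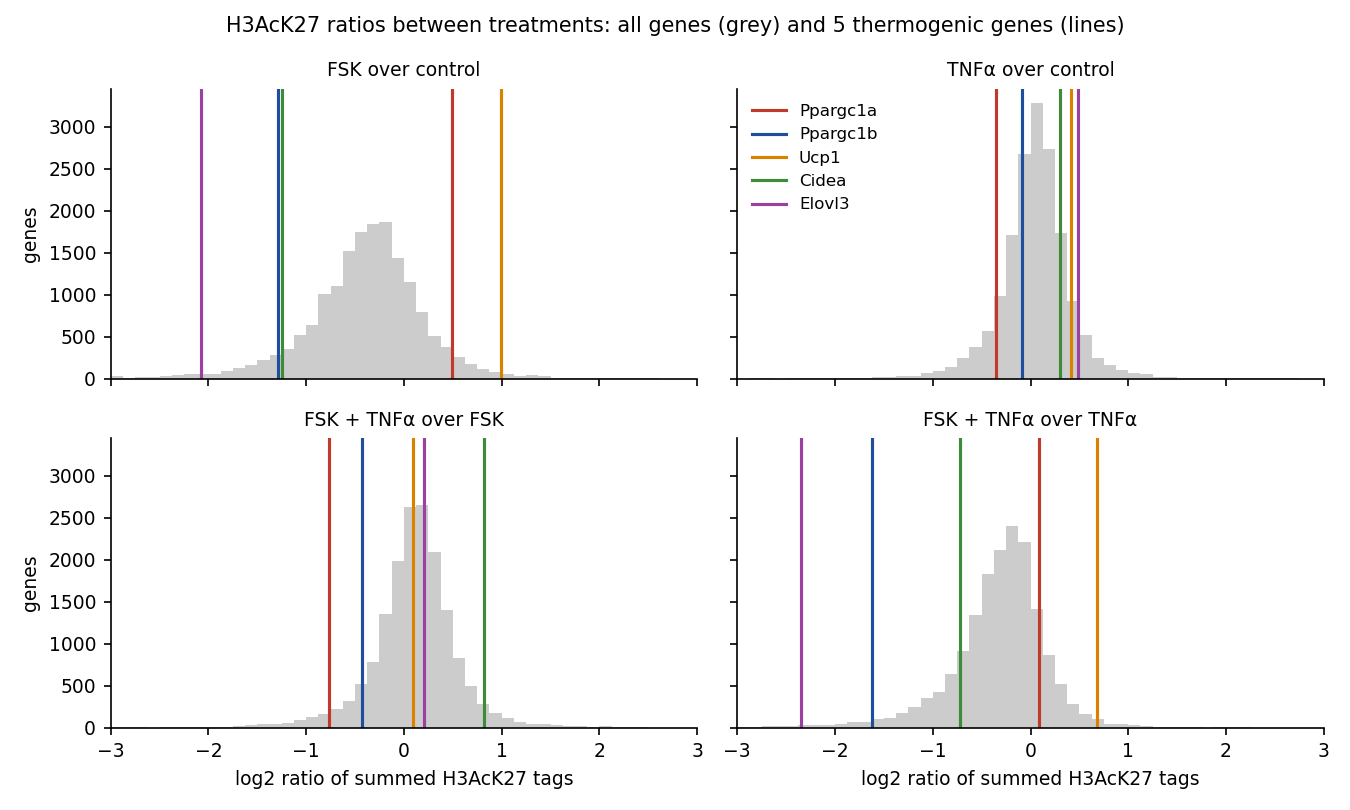
Distribution over 16897 genes (grey, number of genes per bin) of the log2 ratio of summed H3AcK27 tags between treatments, with colored lines for 5 thermogenic genes, 1 panel per pair of lists. With FSK over control, Ppargc1a and Ucp1 lie right of the bulk and Ppargc1b, Cidea, and Elovl3 left of it, and the Ucp1 line reflects regions at Elmod2.

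In 200 bp around the peak center, a CRE half-site was found in 7 of the 28 CRTC2 peaks and a full CRE in 0. The AP1 site TGAGTCA was found in 5, the PPAR response element in 0, and a C/EBP site in 1. A site called in more than 1 list counts more than once, as for half-sites at the Elmod2 and Gbf1 starts. Of the 7, only the Ppargc1a peak after combined treatment was nearest to a start site of the listed gene. Over whole CRTC2 lists the half-site was present in 14.7% of peaks in control cells, 26.3% after FSK, 15.7% after TNFα, and 25.2% after combined treatment. AP1 was present in 3.68%, 12.2%, 5.30%, and 14.5%. A full CRE was present in 1.13% to 2.95%, a C/EBP site in 1.26% to 1.64%, and a PPAR response element in 0.0154% to 0.0255%. H3AcK27 of the same treatment overlapped 21 of the 28 peaks: 1 of 3 in control cells, 4 of 7 after FSK, 7 of 9 after TNFα, and 9 of 9 after combined treatment. Over whole lists those shares were 59.6%, 84.1%, 74.5%, and 82.6%.

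A wider list of 48 partners and effectors of these genes was examined in the same way. CRTC2 was at the promoters of 6, 11, 17, and 12 of the 48 in control, FSK, TNFα, and combined lists (12.5%, 22.9%, 35.4%, and 25.0%), close to or below the shares of all genes. Partners of PGC-1 accounted for 2, 5, 11, and 6 of these promoters (of 15 genes), PRDM16 partners and determination genes for 3 in each list (of 11), and thermogenic and beige effectors for 1, 3, 3, and 3 (of 22). p65 was at 0, 1, 1, and 2 promoters of the 48 (0%, 2.08%, 2.08%, and 4.17%), against 0.0915%, 0.586%, 0.627%, and 1.01% of all genes. H3AcK27 was at 25, 21, 25, and 21 (52.1%, 43.8%, 52.1%, and 43.8%), near the 51.7%, 47.0%, 51.4%, and 49.1% of all genes. It was most often at PGC-1 partners, with 12 of 15 in control cells.

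CRTC2 was listed at 6 of the 48 promoters in both FSK lists and not in control cells, 12.5% of the list and 13.3% of all genes. Tnfrsf9, which encodes the receptor CD137 and is used as a beige adipocyte marker, held 18.3 normalized tags after FSK (12.3 to 26.1). Ehmt1, a histone methyltransferase and PRDM16 partner, held 15.2 after FSK and 28.7 after TNFα. Nrip1, the corepressor RIP140, held 13.4 after FSK, 25.3 after TNFα, and 25.2 after combined treatment. Pprc1, the third member of the PGC-1 family, held 12.2, 24.2, and 15.4. Pparg, the nuclear receptor of adipogenesis that PGC-1α coactivates, was listed after FSK at 9.73 normalized tags (5.56 to 15.8) and after combined treatment at 13.8 (10.1 to 18.6), and not after TNFα. Sirt1, a deacetylase that acts on PGC-1α, held 7.91 after FSK, and 28.3 after TNFα and 13.5 after combined treatment at another start site. For 5 of these 6 genes TNFα alone also gave a listed promoter peak, as it did for 39.9% of all genes. The share among all genes with the same FSK pattern was not computed. Ppargc1a had no such TNFα peak, but its FSK peak, ranked 5424, was itself lost when lists were cut to 5188 peaks. The FSK peaks given for Ehmt1, Pparg, and Sirt1 ranked 7143, 6235, and 9624, also beyond that cut.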

How the data were processed

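ChIP-seq of CRTC2, p65, and H3AcK27 gave 1 library for each of 12 groups, taken from the sample labels, and 2 input libraries enter only through the lists. STAR, HOMER, and mm10 are named in the submitters' processing notes, without versions. The deposited lists hold for each peak a signal scaled by the authors to 10000000 tags per library, a score (at most 1 tag per position), and a fold over input of at least 4. Tag counts were recovered from the deposited signal and library total. From 35.6% to 56.6% of CRTC2 tags and 18.3% to 69.8% of p65 tags remained at 1 tag per position, so tags are not all independent molecules. Peaks were placed on GENCODE M21 gene models (GRCm38) by an overlap of at least 1 bp, and 0 passed a chromosome end.

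All 7 genes are named, and from the list of 48 those with CRTC2 promoter peaks in both FSK lists and not in control, at most 10. Genes resembling a member were to be named where it had CRTC2 promoter peaks in 2 lists, which 0 members had. RefSeq promoters were matched for 4 of the 7 genes, and all 4 equaled the genome. Ppargc1b, Cidea, and Elovl3 were not matched. Motifs were sought as exact letters on both strands. Members and lists were chosen with earlier results of these data known, and the comparison of CRE promoters and the H3AcK27 ratios after the values were seen. The code passed 4 of 4 checks on simulated data. Alternatives changed fold, list length, overlap, promoter, window, and motif extent. Versions were matplotlib 3.10.9, pysam 0.24.0, scipy 1.17.1, numpy 2.4.6, and Python 3.11.15.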

Additional observations from a re-analysis of the deposited data

Results flagged for a closer look

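Effects of FSK went in opposite directions without and with TNFα for 3 measures, each from 1 library per condition, and the differences were not tested. Summed H3AcK27 at Prdm16 changed by 8.14 normalized tags from control to FSK and by -3.32 from TNFα to combined treatment, from 1 weak region in each treated list, of which those after FSK and combined treatment did not overlap. The number of CRTC2 peaks in the Cidea window changed by 1 from control to FSK and by -1 from TNFα to combined treatment, and in the Elovl3 window by 2 and -1. In both windows the peaks that differ lie near other genes or hold under 10 normalized tags.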

How the results depend on the processing

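No paired analysis was possible because each group has 1 library, so no replicate was left out. Of the alternatives tried, 133 values stayed within 1.5 times of the value reported and 45 moved, each in a count. Some of the 133 could not have moved, such as counts of 0 under stricter settings and control CRTC2 counts at equal list length. With lists cut to equal length (5188 peaks for CRTC2, 214 for p65), 0 genes had a CRTC2 promoter peak after FSK, so the Ppargc1a peak depends on list length. At that length CRTC2 peaks numbered 2, in 2 windows, after FSK, after TNFα, and after combined treatment, against 3 in 2 windows in control cells, so the higher counts of the treated lists also depend on list length. p65 peaks then numbered 0. With promoters from 2000 bp upstream to 500 bp downstream, p65 was at 1 promoter after combined treatment, that of Ppargc1a. Counted by midpoint, H3AcK27 was at 0, 1, 0, and 0 promoters in control, FSK, TNFα, and combined lists.

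At 8-fold over input or more, combined treatment had CRTC2 in 3 windows (4 peaks), p65 in 1 (1 peak), and H3AcK27 at 0 promoters and over 0 start sites. H3AcK27 regions then numbered 14, 7, 15, and 5. With 20 kb windows, CRTC2 lay in 1, 2, and 3 windows in control, FSK, and combined lists, with 3 peaks after FSK and 5 after combined treatment. p65 then had 0 windows and 0 peaks after FSK and 1 of each after combined treatment, and control cells had 23 H3AcK27 regions. From 5 kb upstream to the gene end, CRTC2 peaks numbered 1, 4, and 4 after FSK, TNFα, and combined treatment, p65 peaks 0 after FSK and 1 after combined treatment, and H3AcK27 regions 15, 13, 15, and 9. These narrower settings leave fewer peaks by construction. Motif counts were within 1.5 times when only the listed peak was searched, except AP1, found in 1 of 28 in place of 5.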
